A study of Mus musculus with 6 samples.

Results

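The genes described here are the RNA-binding proteins Lin28a, Lin28b and Igf2bp1 to Igf2bp3, the chromatin proteins Hmga1 and Hmga2, the transcription factor Arid3a, and the RNA-processing enzymes Dis3l2 and Dicer1. They were taken by symbol, 10 symbols in all, from a deposited table of raw RNA-seq counts with 17523 rows. A row was found for 9 of the 10, and Igf2bp1 was not analysed here. The table compares bone marrow cells, sorted by FACS and described by the series as hematopoietic stem cells (HSCs), from C57BL/6 mice of 2 genotypes, labelled wild type (WT) and NHD13 mutant. NHD13 joins part of NUP98, a nuclear pore gene, to the Hox gene HOXD13, and such mice model the blood disorder myelodysplastic syndrome. There were 3 WT and 3 NHD13 libraries, and the comparison asks what the fusion does to the RNA of these cells. The sources used here do not give the promoter that drives the fusion, the age of the mice, the surface markers of the sort, or whether a library came from 1 animal or several. The genes were chosen with the NHD13 to WT differences of these same libraries known, so their values are given as a description, without a test.

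LIN28 proteins bind the loop of the precursors of let-7 microRNAs and keep them from being processed. Lin28a is known to bring in the uridylyltransferases Zcchc11 and Zcchc6, whose oligo-U tail marks the precursor for the exonuclease Dis3l2. Dicer1 instead cuts an unbound precursor to its mature form. Lin28b is known for its expression in fetal blood stem and progenitor cells and for its decline after birth, while mature let-7 represses mRNAs that carry sites for its seed. Hmga2, the Igf2bp genes, Arid3a and both Lin28 genes themselves are known let-7 targets, and Arid3a is known for its part in fetal-type B-cell development.

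The let-7 family is shown first because most of these genes carry sites for its seed. RefSeq (GRCm38.p6) gave 9 distinct names of 5′ arm miRNAs of the family, and all share bases 2 to 8, which are in capitals.
let-7a-5p: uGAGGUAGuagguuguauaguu
let-7b-5p: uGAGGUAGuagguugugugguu
let-7c-5p: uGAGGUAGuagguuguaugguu
let-7d-5p: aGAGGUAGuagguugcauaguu
let-7e-5p: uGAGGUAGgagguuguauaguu
let-7f-5p: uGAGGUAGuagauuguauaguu
let-7g-5p: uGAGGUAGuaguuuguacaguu
let-7i-5p: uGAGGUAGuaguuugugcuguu
miR-98-5p: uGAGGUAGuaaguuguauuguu

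The letters GGAG in the precursor loop are known as the contact of the LIN28 zinc knuckles. Among the 12 let-7 family hairpins in RefSeq, GGAG stood between the arms in 9, GAAG in 2 (Mirlet7b and Mir98) and neither in 1 (Mirlet7c-2). Over all 645 mouse hairpins with both arms annotated, GGAG stood there in 8.22% and GAAG in 6.67%. A hairpin of each kind is shown with those letters in capitals.
Mirlet7g: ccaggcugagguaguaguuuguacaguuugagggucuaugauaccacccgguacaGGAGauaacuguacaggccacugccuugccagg
Mirlet7b: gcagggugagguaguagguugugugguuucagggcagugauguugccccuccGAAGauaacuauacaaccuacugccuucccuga
Mirlet7c-2: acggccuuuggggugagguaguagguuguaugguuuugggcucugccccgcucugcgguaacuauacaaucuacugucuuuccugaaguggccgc

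The mRNAs carry the complement of this seed. The letters CTACCTCA, the 8-base site, occurred in the 3′ untranslated regions (GENCODE, GRCm38) of Lin28a, Lin28b, Igf2bp1, Igf2bp2, Igf2bp3, Hmga2 and Arid3a. Lin28a held 2 such sites, Igf2bp1 held 3 and each of the others held 1. With the 7-base form CTACCTC counted as well, Lin28b, Hmga2 and Igf2bp1 had 4 sites each and Arid3a had 2. Hmga1 and Dis3l2 had 1 site of 7 bases each, and Dicer1 had 0. Of all tested genes with an annotated 3′ untranslated region, 5.015% had the 8-base site and 13.8% had the 7-base form or longer. The 8-base sites of the genes with a row are shown as DNA of the transcript strand, the site in capitals.
Lin28a, chr4:134004541-134004569, minus strand: tcgccacaaacCTACCTCActgtgttgaa
Lin28a, chr4:134005179-134005207, minus strand: agcctgttgaaCTACCTCAtttttgccga
Lin28b, chr10:45381012-45381040, minus strand: gggcgggaagtCTACCTCAtgcaagcaca
Igf2bp2, chr16:22059463-22059491, minus strand: acaaataaaagCTACCTCAggtgtttttt
Igf2bp3, chr6:49086777-49086805, minus strand: tttttactcaaCTACCTCAggtattcagt
Hmga2, chr10:120364214-120364242, minus strand: acattcaatttCTACCTCAgcatcagttg
Arid3a, chr10:79953899-79953927, plus strand: caagtttctttCTACCTCAggtcttttga

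Library totals ran from 12541538 to 14388772 counts, so a floor of 3 counts stood at 0.2085 to 0.2392 CPM (each count scaled to its library's total and TMM factor). The fusion has a row of its own, with 0 counts in each WT library and 185, 179 and 167 counts in NHD13 replicates 1 to 3. The mouse Nup98 row had 67.4 ± 5.84 CPM in WT and 78.4 ± 1.12 CPM in NHD13 (SD, n = 3 each, edgeR adjusted p = 0.0609). That adjusted p was 0.0492 with a replicate block, 0.0318 without WT replicate 1 and 0.0329 without NHD13 replicate 1. Hoxd13 had 0 counts throughout. NHD13 replicate 1 stood apart: on a principal component that held 12.3% of the variance it was at 28.2, and the other 5 libraries lay between -14.1 and 8.67. The summed RNA of 4 Y-linked genes was 0.01091% to 0.01937% of counts in WT and 0.01767% to 0.02796% in NHD13. Xist stood at 462 to 1080 CPM in WT and at 2.55, 1.95 and 683 CPM in NHD13, so sex and genotype were not balanced. Every WT library and NHD13 replicate 3 held both Xist and Y-linked RNA. Whether mice of both sexes were pooled in them was not tested. Of 12 long-term HSC markers, 3 (Procr, Fgd5 and Hoxb5) were below the filter on low counts. The HSC list summed to 340.2 to 372.1 CPM in WT and 280.7 to 306.6 CPM in NHD13, most of it from Kit, at 254 ± 13.7 and 226 ± 9.44 CPM (SD, n = 3 each). Of its 9 tested members, Mecom was higher, and Hlf, Meis1, Tek, Ly6a and Gata2 were lower. Hoxb5 had 2 counts over the WT group and 54 over the NHD13 group. Mature neutrophil markers summed to 33480 to 51720 CPM in WT and 22990 to 31760 CPM in NHD13. B-lymphoid markers summed to 25.83 to 41.57 CPM in WT and 16.61 to 18.74 CPM in NHD13. Erythroid markers summed to 922.4, 945.3 and 1076 CPM in the WT libraries and 1327, 2185 and 2123 CPM in the NHD13 libraries. Megakaryocyte markers summed to 120.9 to 147.1 CPM in WT and 111.4 to 113.1 CPM in NHD13. Of the tested markers, 6 of 8 erythroid ones were higher and 0 lower, 8 of 11 neutrophil and 5 of 7 B-lymphoid ones were lower and 0 higher, and of 11 megakaryocyte ones 1 was higher and 2 lower, beside 15% higher and 15.3% lower over all tested genes. Among the markers with the lowest p in each list, only Mecom and Itga2b kept their call with Y-linked RNA as a covariate in the fit. The others then had edgeR adjusted p from 0.051 (Meis1) to 0.634 (Rag1). Tek, Rag1, Cd79b, Retnlg, Ltf, Lcn2, S100a8, Pf4 and Itgb3 also lost their call in at least 1 fit that left out 1 library. The part of cell types other than HSCs and of sex in the results below was not tested. In bulk RNA, fewer cells of a type and less RNA per cell cannot be told apart.

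Lin28b was close to absent in WT and abundant in NHD13. Its counts were 3, 2 and 0 in WT replicates 1 to 3 and 635, 767 and 1044 in NHD13 replicates 1 to 3. All WT libraries were at or below the floor of 3 counts, and the NHD13 library with the fewest Lin28b counts had 635. The mean level was 0.129 ± 0.120 CPM in WT and 57.7 ± 12.8 CPM in NHD13 (SD, n = 3 each). Over the groups, 5 counts stood against 2446, a ratio of 469 after scaling for depth, with an exact 95% interval of 200.7 to 1446 that covers counting error only. The fitted log2 change was 8.76 (SE 0.36), the rank 5 among 12013 tested genes by size of increase. Lin28b passed the filter on low counts only through the NHD13 libraries. Among the NHD13 libraries, replicate 3 was the highest at 72.1 CPM, with 47.6 CPM in replicate 1 and 53.3 CPM in replicate 2. The log2 change was 9.46 without WT replicate 1 and 8.17 without WT replicate 3.

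Lin28a, the paralog known from embryonic stem cells, was present at like levels in both genotypes. Its counts were 834, 959 and 943 in WT and 959, 957 and 842 in NHD13. The groups overlapped, with WT at 67.6 ± 3.21 CPM and NHD13 at 65.5 ± 6.92 CPM (SD, n = 3 each). The log2 change was -0.046 (SE 0.089) and turned to 0.024 without NHD13 replicate 3. On an exon length of 3996 bases Lin28a overlaps the gene Gm13061 on the other strand over 234 bases, and reads from the pair cannot be told apart because no source used here says whether strand was used in counting.

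**Figure D1:**
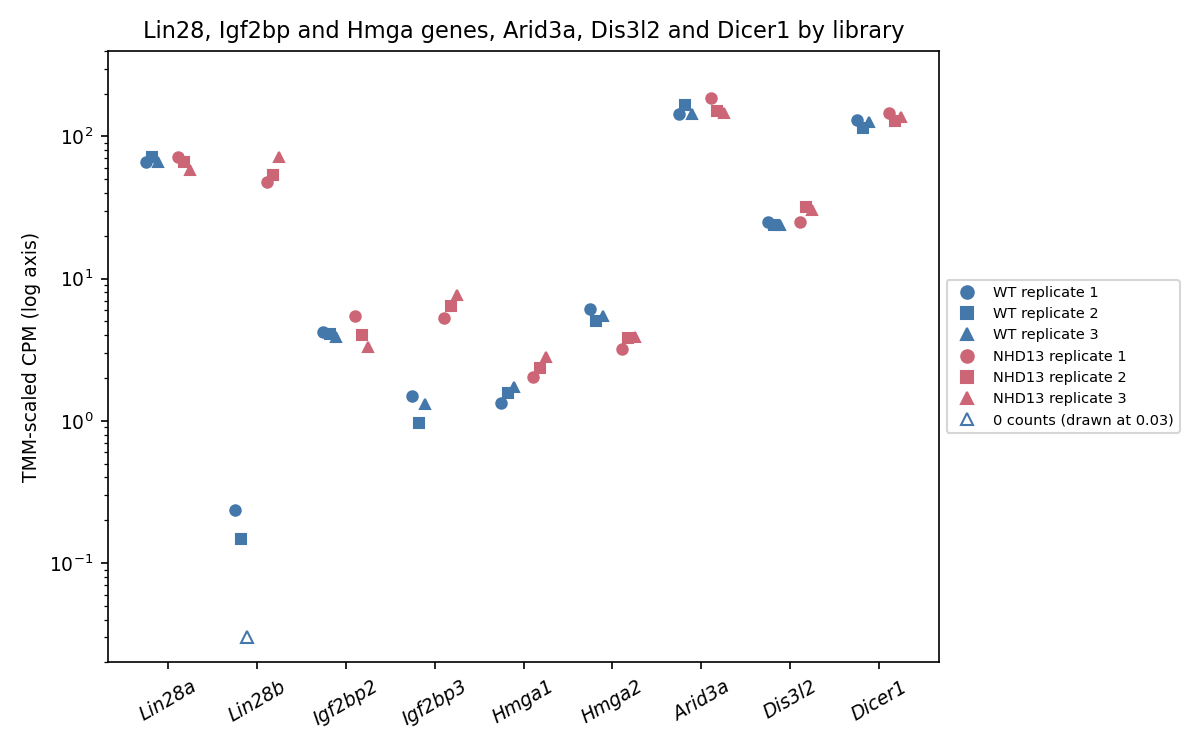
TMM-scaled CPM on a log axis for each gene in each of the 3 WT (blue) and 3 NHD13 (red) libraries, with 1 point per library and shape giving the replicate. The Lin28b points of NHD13 lie at 47.6 to 72.1 CPM, far above those of WT, whereas the points of Lin28a, Igf2bp2, Arid3a, Dis3l2 and Dicer1 overlap between genotypes.

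Of the 9 genes with a row, 4 (Lin28b, Igf2bp3, Hmga1 and Hmga2) had libraries that did not overlap between the genotypes, and 5 overlapped. Over all 12013 tested genes the groups did not overlap in 46.1%. The genes were picked from this contrast, so nothing is read from the count. The 8 genes other than Lin28b reached 10 counts in all 6 libraries.

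The Igf2bp genes encode proteins that bind mRNAs and affect their stability and translation. Igf2bp3, known for fetal expression, had 19, 13 and 19 counts in WT and 70, 92 and 111 counts in NHD13. Every NHD13 library lay above every WT library, with means of 1.26 ± 0.272 and 6.44 ± 1.21 CPM (SD, n = 3 each). The counts summed to 51 and 273, a depth-scaled ratio of 5.132 with an exact 95% counting interval of 3.794 to 7.063. The log2 change was 2.34 (SE 0.25), the rank 62 by size of increase. This change lay between 2.19 and 2.47 over the 11 alternative fits compared for it. Exons of Igf2bp3 overlap those of Malsu1, a mitochondrial ribosome assembly factor on the other strand, over 1529 bases. Malsu1 had 9.04 ± 1.34 CPM in WT and 11.7 ± 0.587 CPM in NHD13 (edgeR log2 change 0.37, adjusted p = 0.0793, but 0.0409 without NHD13 replicate 1).

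Igf2bp2, the member of this family best known from adult tissue, had 53, 55 and 56 counts in WT and 73, 58 and 48 counts in NHD13. The WT libraries lay within the range of the NHD13 libraries, with WT at 4.06 ± 0.146 CPM and NHD13 at 4.27 ± 1.10 CPM (SD, n = 3 each). The log2 change of 0.070 (SE 0.22) turned to -0.139 without NHD13 replicate 1.

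Within both families the balance between paralogs differed by genotype. Of the summed counts of Lin28a and Lin28b, Lin28b made up 0.358%, 0.208% and 0% in WT and 39.8%, 44.5% and 55.4% in NHD13. The 0 counts of WT replicate 3 allow up to 0.4057% by the Wilson 95% interval. Counted per length of exon, since Lin28b has 9065 bases of exon and Lin28a has 3996, the NHD13 share was 28.0% ± 6.59 (SD, n = 3). Igf2bp3 made up 23.6% ± 3.93 of Igf2bp2 and Igf2bp3 counts in WT and 60.03% ± 10.49 in NHD13 (SD, n = 3 each). In NHD13 it ranged from 48.95% in replicate 1 to 69.81% in replicate 3. These shares restate the counts that led to the choice of the genes.

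**Figure D2:**
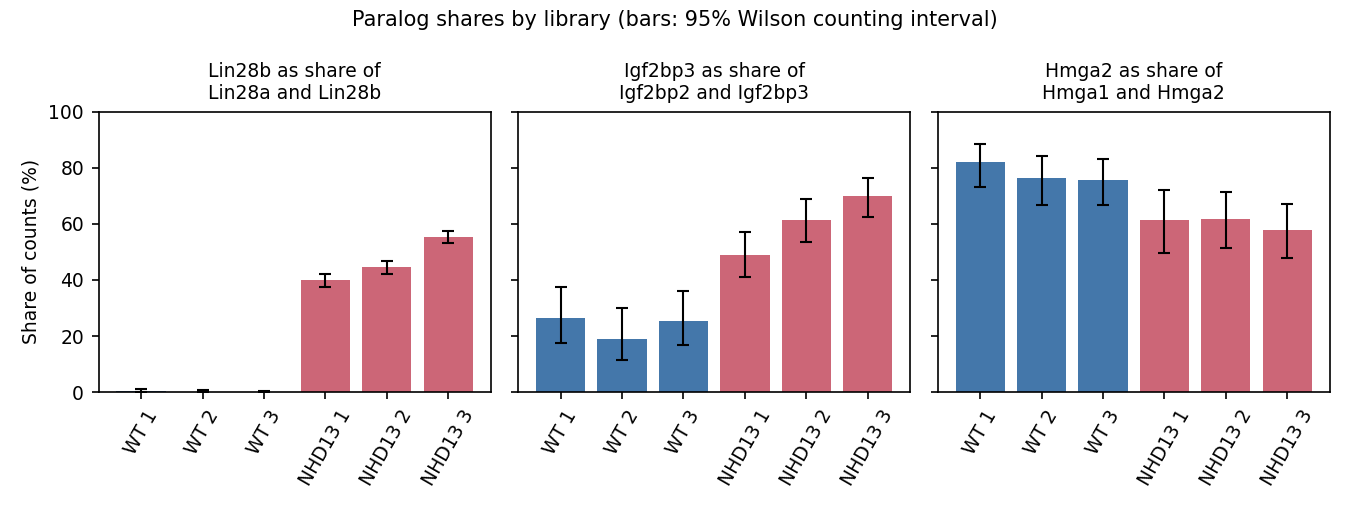
Share of counts (percent) of Lin28b among Lin28a and Lin28b, of Igf2bp3 among Igf2bp2 and Igf2bp3, and of Hmga2 among Hmga1 and Hmga2, by library, with 95% Wilson counting intervals as error bars. Lin28b is near 0% in WT and 39.8% to 55.4% in NHD13, and Hmga2 is 57.73% to 61.8% in NHD13 against 75.73% to 81.91% in WT.

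Hmga1 and Hmga2 encode small proteins that bind AT-rich DNA, and Hmga2 is known for its high level in fetal stem cells and for its let-7 sites. Hmga2 had 77, 68 and 78 counts in WT and 43, 55 and 56 counts in NHD13. All NHD13 libraries lay below all WT libraries, with WT at 5.52 ± 0.518 CPM and NHD13 at 3.64 ± 0.360 CPM (SD, n = 3 each). The log2 change was -0.60 (SE 0.17), and 16.7% of tested genes had a larger one in either direction. Hmga2 was lower in the genotype in which Lin28b was higher. Mature let-7 is not among the measurements, and a link between Lin28b, let-7 and Hmga2 was not tested.

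Reads of Hmga2 may be shared with Hmga2-ps1, which RefSeq lists as a transcribed pseudogene (GRCm38.p6, chr1:176834624-176836133), a row singled out after its values were seen. It had 97, 132 and 132 counts in WT and 11, 14 and 8 counts in NHD13. It fell by 3.49 on the log2 scale (SE 0.24, edgeR adjusted p = 6.65e-05), from 8.89 ± 1.11 to 0.783 ± 0.213 CPM (SD, n = 3 each). The pseudogene took 55.75% to 66% of the summed counts of both rows in WT and 12.5% to 20.37% in NHD13. The sum of both rows was 14.4 ± 0.594 CPM for WT and 4.42 ± 0.374 CPM for NHD13, 3.26-fold lower. Hmga2 was lower with and without the pseudogene's counts, and no source used here says how reads that match both were placed.

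**Figure D3:**
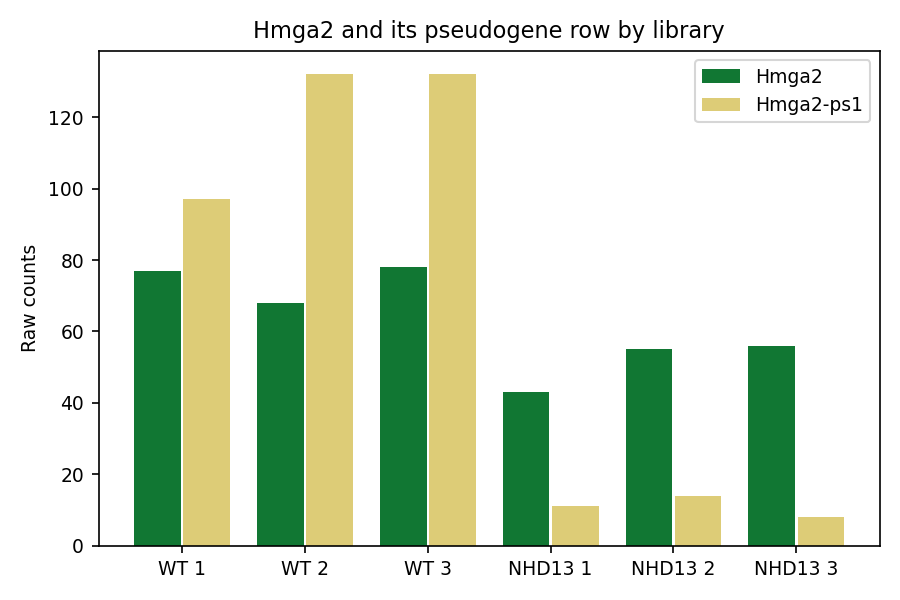
Raw counts of Hmga2 (green) and of the pseudogene row Hmga2-ps1 (yellow) in each library. Hmga2-ps1 has 97 to 132 counts in WT and 8 to 14 in NHD13, and Hmga2 has 68 to 78 counts in WT and 43 to 56 in NHD13.

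Hmga1 had 17, 21 and 25 counts in WT and 27, 34 and 41 counts in NHD13. The groups did not overlap, with WT at 1.55 ± 0.199 CPM and NHD13 at 2.41 ± 0.406 CPM (SD, n = 3 each), but the highest WT library and the lowest NHD13 library were only 2 counts apart. The log2 change was 0.63 (SE 0.24), and 0.95 with Y-linked RNA as a covariate. Its near-identical copy Hmga1b was not analysed here, and its exons overlap AI413582 on the other strand over 102 bases, so its level is uncertain. AI413582 had a log2 change of -0.12 (edgeR adjusted p = 0.429).

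Arid3a was the most abundant of these genes. Its counts were 1811, 2227 and 2074 in WT and 2472, 2152 and 2114 in NHD13, and the groups overlapped. Levels were 151 ± 12.7 CPM and 160 ± 21.7 CPM (SD, n = 3 each). The log2 change of 0.085 (SE 0.10) turned to -0.028 without NHD13 replicate 1, the library with the highest level of Arid3a.

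Of the enzymes, Dicer1 had 1663, 1535 and 1799 counts in WT and 1953, 1861 and 1986 counts in NHD13. The libraries overlapped, and the means were 124 ± 8.71 and 138 ± 8.53 CPM (SD, n = 3 each) with a log2 change of 0.15 (SE 0.08). Dis3l2 had 318, 321 and 342 counts in WT and 332, 457 and 437 in NHD13. NHD13 replicate 1 lay among the WT libraries and the other two lay above them, with WT at 24.3 ± 0.736 CPM and NHD13 at 28.94 ± 3.602 CPM (SD, n = 3 each). The log2 change of Dis3l2 was 0.26 (SE 0.11).

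Levels per kilobase of exon put the genes in order within a genotype. In WT, Arid3a led at 27.2 ± 2.28 CPM per kb, followed by Lin28a at 16.9 ± 0.804, Dicer1 at 7.38 ± 0.520 and Dis3l2 at 2.73 ± 0.0827 CPM per kb (SD, n = 3). Hmga2 at 0.816 and Hmga1 at 0.729 CPM per kb overlapped, followed by Igf2bp2 at 0.548, Igf2bp3 at 0.155 and Lin28b at 0.0142 CPM per kb. In NHD13 Lin28b moved from last to the fourth place, at 6.36 ± 1.41 CPM per kb, and its libraries overlapped those of Dicer1 at 8.22 ± 0.509 CPM per kb. Even there it remained below Lin28a, at 16.4 ± 1.73 CPM per kb, with no overlap. Igf2bp3 at 0.789, Igf2bp2 at 0.577 and Hmga2 at 0.537 CPM per kb filled the last places in NHD13, and each overlapped its neighbour.

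Genes with the profile most like that of Lin28b were sought by the Euclidean distance between centred log2 CPM values over the 6 libraries, for which the median gene was at 9.63 from Lin28b. The closest were Stfa1 at 1.80, Mab21l2 at 1.89, the fusion row at 2.05, Hoxc5 at 2.15 and Stfa3 at 2.36. Stfa1, a cysteine protease inhibitor, had 21, 31 and 22 counts in WT and 1505, 4323 and 4212 counts in NHD13. Mab21l2, a developmental gene, had 0, 0 and 1 counts in WT and 273, 273 and 292 counts in NHD13. In WT, Mab21l2 was under the floor of 3 counts and Stfa1 was above it. NHD13 replicate 1 was low for Stfa1 and level with the others for Mab21l2. Around Igf2bp3 the closest were Sfrp4 at 0.458, Dach2 at 0.483, Hes1 at 0.502, Liph at 0.522 and Reep6 at 0.634, against a median of 2.79. Sfrp4, a secreted inhibitor of Wnt signalling, had 21, 21 and 22 counts in WT and 86, 98 and 117 counts in NHD13. Hes1, a target of Notch signalling, had 5, 4 and 6 counts in WT and 30, 25 and 36 counts in NHD13. These genes were chosen by their likeness to genes that differed, so they carry no test.

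At the genome level, Lin28b lies on the minus strand of chromosome 10 (GRCm38, chr10:45376620-45486395) and Igf2bp3 on the minus strand of chromosome 6 (chr6:49085223-49214957). The RefSeq promoter windows, 250 bases before to 50 bases after the start, are shown for these 2 genes because their RNA differed most. Capitals mark ATAAA, the core of posterior Hox sites, and TGATTNAT, a Hox and Pbx site, searched on both strands. These motifs were chosen after the sequences were seen, so nothing is read from their counts. In the Lin28b window 2 matches of each were found. The TGATTNAT matches come from 1 palindrome, read once on each strand, which overlaps 1 ATAAA. The Igf2bp3 window held 0 of either, as did the windows found for Lin28a, Igf2bp2, Hmga1, Hmga2, Dis3l2 and Dicer1. Of 32851 promoters, 40% held ATAAA and 3.22% held TGATTNAT. The GC content was 39% in the Lin28b window, with 8.38% of promoters lower, and 60.3% in that of Igf2bp3, against a median of 52.7%. The Lin28b window lies inside the GENCODE span, which begins further upstream.
Lin28b promoter, chr10:45470152-45470451, minus strand: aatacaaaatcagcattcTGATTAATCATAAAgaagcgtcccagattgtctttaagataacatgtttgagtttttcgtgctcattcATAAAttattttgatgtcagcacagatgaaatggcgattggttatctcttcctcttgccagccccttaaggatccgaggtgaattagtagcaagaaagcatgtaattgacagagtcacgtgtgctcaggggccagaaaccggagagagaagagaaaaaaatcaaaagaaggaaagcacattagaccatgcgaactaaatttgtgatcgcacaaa
Igf2bp3 promoter, chr6:49214905-49215204, minus strand: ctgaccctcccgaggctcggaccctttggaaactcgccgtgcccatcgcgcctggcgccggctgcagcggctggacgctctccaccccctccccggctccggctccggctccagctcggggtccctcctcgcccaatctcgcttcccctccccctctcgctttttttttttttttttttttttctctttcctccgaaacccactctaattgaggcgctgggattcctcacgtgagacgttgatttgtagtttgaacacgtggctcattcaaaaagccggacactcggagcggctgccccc

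Neighbours were taken by position alone. Of 3 rows within 500 kb of Lin28b, 2 were tested, and 1 was higher in NHD13. This was Prep, a peptidase 209.4 kb away, which stood at 92.9 ± 2.26 CPM in the WT and 109 ± 0.590 CPM in the NHD13 libraries (log2 change 0.24, SE 0.06, edgeR adjusted p = 0.0193). Prep lost its call without WT replicate 2 or 3 or NHD13 replicate 2 or 3. The ubiquitin ligase Hace1, 91.43 kb away, had a log2 change of 0.29 (edgeR adjusted p = 0.141). This was 0.39 (adjusted p = 0.0126) without NHD13 replicate 1, and 0.29 (adjusted p = 0.0437) with the replicate block. Bves, the nearest at 4.141 kb, had 0 counts in WT and 4 in NHD13 over the groups. Of 19 rows within 500 kb of Igf2bp3, 17 were tested, 1 was higher and 3 were lower. Gpnmb, a membrane glycoprotein of macrophages 14.29 kb away, had 4, 8 and 2 counts in WT and 24, 25 and 11 counts in NHD13 (log2 change 2.01, SE 0.53, edgeR adjusted p = 0.0218). That call was lost without WT replicate 1 or 3 or NHD13 replicate 2. Tmem176b fell from 44.1 ± 1.22 to 17.8 ± 5.23 CPM (SD, n = 3 each, edgeR adjusted p = 0.00169) and Tmem176a from 17.0 ± 0.662 to 6.93 ± 2.78 CPM (SD, n = 3 each, edgeR adjusted p = 0.00541). Gimap1, an immune GTPase, fell from 6.20 ± 0.641 to 4.18 ± 0.243 CPM (SD, n = 3 each, edgeR adjusted p = 0.0286), and its adjusted p was 0.055 with DESeq2. The Gimap1 call was also lost without WT replicate 2 or 3 or NHD13 replicate 2 or 3. Gimap6 had a log2 change of -0.81 and an adjusted p of 0.056 by edgeR, which was 0.0276 by DESeq2, 0.0161 with the replicate block and 0.0134 without WT replicate 1. Over the neighbours of both genes, 3 of 19 tested were lower by edgeR and 4 of 22 by DESeq2. Tra2a, 28.97 kb away, had a log2 change of 0.045 (adjusted p = 0.719). The other tested rows, which did not pass, were Malsu1, AI854703, Ccdc126, Fam221a, Repin1, Zfp775, Gimap3, Gimap4, Gimap5, Gimap8 and Gimap9. Without NHD13 replicate 1, Ccdc126 (adjusted p = 0.0195) and Repin1 (adjusted p = 0.0492) were lower. Over all tested genes 15% were higher and 15.3% lower. With Y-linked RNA as a covariate, 0 neighbours passed, and without NHD13 replicate 1, 4 were higher and 6 lower.

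The machinery that makes and uses miRNAs had 24 tested genes of 25 listed, of which 7 were higher and 1 lower in NHD13. That is 33.33%, next to 30.3% of all tested genes, and the median log2 change was 0.12 against 0.0011 over all genes. The higher genes were Drosha, Xpo5, Ran, Ago2, Tnrc6a, Trim25 and Khsrp. Ago2, the slicing Argonaute (listed as Eif2c2), had 149 ± 9.31 CPM in WT and 226 ± 16.4 CPM in NHD13 (SD, n = 3 each, log2 change 0.60, SE 0.08, edgeR adjusted p = 0.00143). Khsrp, which is known to promote let-7 maturation, rose from 186 ± 4.74 to 259 ± 15.0 CPM (SD, n = 3 each, edgeR adjusted p = 0.00179). Drosha, the nuclear RNase of the pathway, rose from 76.5 ± 5.47 to 108.5 ± 11.6 CPM (SD, n = 3 each, edgeR adjusted p = 0.00636). Ago4 (listed as Eif2c4), another Argonaute, fell from 14.7 ± 1.13 to 8.85 ± 0.560 CPM (SD, n = 3 each, edgeR adjusted p = 0.0039). With Y-linked RNA added to the fit as a covariate, 0 of the 24 passed in either direction, against 111 higher and 175 lower over all genes. The count of 7 was 4 without WT replicate 1 or 2 or NHD13 replicate 2 or 3. Of the uridylyltransferases that act with Lin28a, Zcchc11 had a log2 change of -0.02 (edgeR adjusted p = 0.864). Zcchc6 had one of 0.16 (edgeR adjusted p = 0.188), and neither passed.

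Known let-7 targets, from a list that leaves out the genes above, had 29 tested of 30, with 12 higher and 3 lower. That is 51.72% called, beside 30.3% of all tested genes (15% higher and 15.3% lower). The median log2 change was 0.20. The list was chosen with earlier results of these data known, and no test was made of it. Among the higher genes were Mycn, Hras, Ccnd1, Cdc25a, Cdc34, Plagl2, Hic2, Dna2, E2f6, Ezh2 and Rdh10, and the 3 lower genes were Fas, Map4k4 and Limd2. Ccnd1, a G1 cyclin, had 206, 276 and 263 counts in WT and 391, 502 and 502 counts in NHD13 (log2 change 0.84, SE 0.12, edgeR adjusted p = 0.00188). Its exons overlap those of LTO1 on the other strand over 1100 bases. Cdc34, a ubiquitin-conjugating enzyme, rose from 76.7 ± 3.66 to 115 ± 10.2 CPM (SD, n = 3 each, edgeR adjusted p = 0.00212). Plagl2, a zinc finger factor, rose from 109 ± 11.4 to 147.5 ± 2.69 CPM (SD, n = 3 each, edgeR adjusted p = 0.00624). Map4k4, a kinase with an 8-base site, had the lowest p of the list and fell from 72.2 ± 12.4 to 27.18 ± 4.602 CPM (SD, n = 3 each, edgeR adjusted p = 0.000723). Of the 21 tested targets with a 7-base or 8-base site, 9 were higher and 3 lower, and of the 8 without one, 3 were higher and 0 lower. The count of 12 was 6 without WT replicate 2 or 3 or without NHD13 replicate 2 or 3. With Y-linked RNA as a covariate it was 1, as was the count of lower genes. Without NHD13 replicate 1, 7 targets were lower.

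Taken by sequence and not from a list of targets, 574 tested genes had the 8-base site in a 3′ untranslated region, 5.015% of those with an annotated one. Of these, 100 were higher (17.4%) and 88 lower (15.3%), with a median log2 change of 0.017. Among the 10872 genes without it, 15.4% were higher and 15.6% lower, with a median of 0.0019. The genes with the site had longer 3′ untranslated regions, with a median of 2677 bases against 1314. With the 7-base site, 253 of 1579 were higher and 240 lower. Among 27 genes with at least 2 of the 8-base sites, 2 were higher and 0 lower. Without WT replicate 2 or 3 or NHD13 replicate 2 or 3, 47 to 52 genes with the 8-base site were higher and 45 to 54 lower, and without NHD13 replicate 1, 151 were lower. The share of higher genes was larger among the listed targets than among genes with a site by sequence. The listed targets were chosen with earlier results of these data known, and this difference was not tested.

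**Figure D4:**
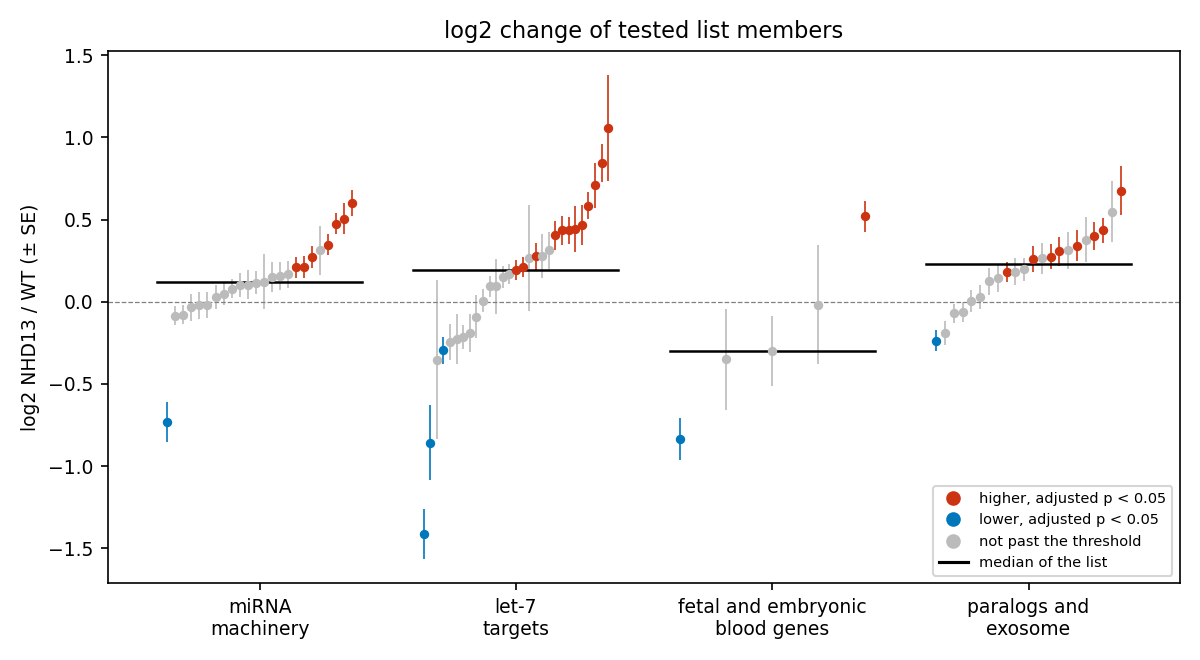
The log2 change of NHD13 over WT for each tested gene of 4 lists, with the SE as error bar and the list median as a black line. Red points are genes higher and blue points genes lower at an adjusted p under 0.05, and 12 of 29 let-7 targets are red against 7 of 24 genes of the miRNA machinery. The lists were chosen with earlier results of these data known.

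Of 17 other genes known from fetal or embryonic blood or, like Bcl11a, from the control of fetal globins, 15 had a row. Of these, 5 were tested, with Bcl11a higher and Grb10 lower (40% called, beside 30.3% of all tested genes, median log2 change -0.30). Bcl11a, a repressor of fetal globin genes, rose from 80.04 ± 4 to 115 ± 13.3 CPM (SD, n = 3 each, edgeR adjusted p = 0.00552). Its rise is not read as that of a fetal gene. The imprinted adaptor Grb10 fell from 27.6 ± 1.21 to 15.5 ± 2.56 CPM (SD, n = 3 each, edgeR adjusted p = 0.00296). The growth factor Igf2, a mRNA bound by the Igf2bp proteins, had 2 counts over the WT group and 6 over the NHD13 group, and H19 had 1 and 5. The embryonic globins Hbb-bh1, Hbb-y and Hba-x had at most 5 counts over a group, so a difference was not detectable at this depth. Over the groups, Esam had 25 WT and 5 NHD13 counts, and Plagl1 had 18 and 4, both below the filter. With Y-linked RNA as a covariate neither Bcl11a (adjusted p = 0.111) nor Grb10 (adjusted p = 0.109) passed.

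Paralogs of the genes and subunits of the RNA exosome, whose catalytic subunit Dis3 is a relative of Dis3l2, had 22 tested genes, with 8 higher and 1 lower (40.91% called, beside 30.3% of all tested genes, median log2 change 0.23). The higher ones were Dis3, Exosc2, Exosc3, Exosc4, Exosc7, Ybx1, Ybx3 and Hmgb3, and Hmgn2 was lower. Dis3, the catalytic subunit, rose from 73.4 ± 7.79 to 97 ± 0.130 CPM (SD, n = 3 each, edgeR adjusted p = 0.00949). Ybx3 (listed as Csda), a cold-shock domain protein like LIN28, rose from 328 ± 14.6 to 443 ± 36.4 CPM (SD, n = 3 each, edgeR adjusted p = 0.00478). Hmgb3, another HMG protein, rose from 214 ± 6.36 to 342 ± 77.9 CPM (SD, n = 3 each, edgeR adjusted p = 0.011), and without WT replicate 2 its adjusted p was 0.0539. Exosc4 rose from 20.2 ± 0.875 to 25.5 ± 2.03 CPM (SD, n = 3 each, edgeR adjusted p = 0.0277), a call kept only without NHD13 replicate 1 among the fits that leave out 1 library. The count of 8 was 15 without NHD13 replicate 1 and 2 or 3 without any other library, 4 with upper-quartile factors and 0 with Y-linked RNA as a covariate.

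The let-7 genes themselves were hardly measured in this table. Of 19 let-7 loci and host genes listed, 4 had a row. Mirlet7i had 0 counts in every library. The host gene of Mirlet7c-1, Mir99ahg (listed as 2810055G20Rik), had 8 counts over the WT group and 2 over the NHD13 group. Huwe1, the host of Mirlet7f-2 and Mir98, had 473 ± 40.2 and 526 ± 32.2 CPM (SD, n = 3 each, edgeR adjusted p = 0.171). Wdr82, the host of Mirlet7g, had 150 ± 4.79 and 159 ± 3.08 CPM (SD, n = 3 each, edgeR adjusted p = 0.309). Neither passed, 0 of 2 by edgeR and by DESeq2, with unadjusted p of 0.0851 and 0.193. Mature let-7 is not among the measurements.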

How the data were processed

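RNA was measured in 6 libraries, 3 WT and 3 NHD13. The authors deposited unnormalised raw counts of reads per gene, as whole numbers. Bowtie2 2.2.1, HTSeq 0.5.4p3 and build mm10 were used, per the submitters' processing notes. The annotation and strand setting were not given in the sources used here. Columns were matched to samples by name, and 0 columns were left out. Nothing says that replicates were separate animals, so p-values measure only the spread between libraries.

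Genes were kept by filterByExpr (minimum count 10), which left 12013 and set 5510 aside. Libraries were scaled by TMM, CPM values are TMM-scaled, and groups were compared by edgeR 4.0.16 (R 4.3.3), the quasi-likelihood F test, two-sided, with Benjamini-Hochberg adjustment over all tested genes and a threshold of 0.05. The SE is the log2 change over the square root of F. The script was tested on simulated data. No pair of libraries agreed within sampling noise (chi-square per degree of freedom 3.46 or more).

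The members and 10 gene lists were chosen with earlier results of these data known. Named are the members, the fusion row, up to 4 genes per list with the lowest p among those called (or the 2 most abundant), the 5 genes nearest in profile to Lin28b and to Igf2bp3 (log2 CPM, prior count 2), and tested genes within 500 kb of either. Marker lists are given as sums and counts of calls, with every called HSC marker named. Hmga2-ps1, AI413582 and genes named for low counts were picked after their values were seen. Positions and 3′ untranslated regions come from GENCODE M21 (GRCm38, the same as mm10). There, 16335 rows matched by symbol, 963 matched through an older symbol and 225 did not match. Promoters and miRNAs come from RefSeq. Alternatives were RLE and upper-quartile factors, no filter, a replicate block, the share of 4 Y-linked genes as a covariate, DESeq2 1.42.0, each library left out, the 7-base site and a window of 1 Mb.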

Additional observations from a re-analysis of the deposited data

How the results depend on the processing

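Lin28b, Igf2bp3, Hmga1, Hmga2, Dis3l2 and Dicer1 kept their direction in the 11 alternative fits compared for these genes. Those were not all of the alternative fits listed above. The log2 change of Hmga1 moved from 0.6309 to 0.9545 with Y-linked RNA as a covariate. Lin28a turned to 0.0236 without NHD13 replicate 3, Igf2bp2 to -0.1827 with Y-linked RNA as a covariate and -0.1391 without NHD13 replicate 1, and Arid3a to -0.0277 without NHD13 replicate 1. Leaving out 1 library moved them from -0.1138 to 0.0236, from -0.1391 to 0.2157 and from -0.0277 to 0.1574, respectively. With that covariate, 111 genes were higher and 175 lower over all genes. The other counts with it, higher then lower, were 0 and 0 for the miRNA machinery, 1 and 1 for let-7 targets, 0 and 0 for fetal genes, 0 and 0 for paralogs and exosome, 8 and 8 for genes with the 8-base let-7 site, and 0 and 0 for neighbours. It uses 1 of the few residual degrees of freedom and moves with the genotype, so the 2 cannot be told apart. Leaving out 1 library gave 760 to 3012 genes higher and 957 to 2966 lower over all genes, the highest of both without NHD13 replicate 1. The ranges were 4 to 9 higher for the miRNA machinery (1 lower in each), 6 to 15 higher and 1 to 7 lower for let-7 targets, 1 to 2 lower for fetal genes, 2 to 15 higher and 0 to 1 lower for paralogs and exosome, 47 to 147 higher and 45 to 151 lower for genes with the site, and 0 to 4 higher and 2 to 6 lower for neighbours (2 and 3 in the main fit). Upper-quartile factors gave 4 higher and 2 lower for paralogs and exosome, the replicate block gave 2 lower there, and fitting with no filter gave 2 lower for fetal genes. Same-numbered libraries had correlations of deviations of 0.249, 0.0632 and 0.175, and the other pairs had -0.235 to 0.149. NHD13 replicate 2 correlated best with WT replicate 3 (0.149). With so few libraries these values cannot decide whether same-numbered libraries were paired, and the labels give only a shared number. The block ended 0 calls among 67 named genes and added 3. Among neighbours, AI854703 turned to -0.2635 without NHD13 replicate 3, and with the covariate Gimap8 turned to 0.5405, Gimap4 to 0.4109, Gimap5 to 0.2682, Gimap3 to 0.4041 and Tra2a to -0.0513. Gimap9 turned to 0.0304 without WT replicate 1 and 0.0743 without NHD13 replicate 1, Gimap3 to 0.0713 without WT replicate 2, and Tra2a to -0.0029 without WT replicate 2 and -0.0216 without NHD13 replicate 1. With 1 library left out, AI854703 ranged from -0.2635 to 0.2516, Gimap9 from -0.1394 to 0.0743, Gimap3 from -0.6045 to 0.0713 and Tra2a from -0.0216 to 0.0934. None of these neighbours was called, and the cause was not tested. A count of 3 per library limits what can be seen of Lin28b in WT, of let-7 loci and of embryonic globins.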
